A study of Mus musculus with 8 samples.

Results

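Trpm3 and AK087052, a noncoding RNA listed on the opposite strand inside a Trpm3 intron, were followed across the brainstem of 8 mice with 3 probes of the 60804 on the array. The probes were taken from the study's lists of RNAs that differ between DBA/1 and C57BL/6 mice, which name 2 Trpm3 transcripts, NM_001035243 and NM_001035242, and 1 transcript of AK087052. The lists were made on these same arrays, from a fold change of 2 or more and a p-value, so the strain difference of each probe is described here and was not tested. Brainstem RNA came from 4 DBA/1 mice (DBA/1JNCrlj) and 4 C57BL/6 mice (C57BL/6JNifdc), with 1 mouse per array. All were males of 5 weeks that had not been tested for audiogenic seizures, and all were killed under isoflurane. DBA/1 mice are an inbred strain in which loud sound can bring on a seizure and respiratory arrest, and C57BL/6 mice are the strain they were compared with. Each mouse gave 1 sample on 1 array, so the spread between replicates holds differences between animals together with those of labeling, hybridization and spot.

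TRPM3 is a calcium-permeable cation channel of the melastatin branch of the TRP family. It opens in response to heat and to the neurosteroid pregnenolone sulfate, and it is best known from sensory neurons, with expression in brain and in the epithelium of the choroid plexus as well. The gene is long, gives rise to many splice forms, and carries the microRNA gene Mir204 in an intron. An intronic antisense lncRNA is a transcript made from the opposite strand within an intron of such a host gene. Some antisense RNAs are known to act on the host gene, while for others no role is known.

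The sequences of the 3 probes, 60 nt each, are shown because every level below is the brightness of 1 of them. A sense and an antisense probe could in principle also hold complementary stretches. Capitals mark the longest run that is complementary between a Trpm3 probe and the AK087052 probe; in AK087052 they mark the run shared with NM_001035242.
Trpm3 NM_001035243: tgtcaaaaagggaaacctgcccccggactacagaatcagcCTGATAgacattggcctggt
Trpm3 NM_001035242: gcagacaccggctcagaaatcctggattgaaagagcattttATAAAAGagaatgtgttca
AK087052: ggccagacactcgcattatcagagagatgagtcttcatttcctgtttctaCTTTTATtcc
The longest complementary run was 6 nt for NM_001035243 and 7 nt for NM_001035242 among the 60 positions of each. These runs compare the probes only, and binding of labeled RNA of 1 gene to the probe of the other was not tested. The Trpm3 probes shared no run longer than 5 nt. The G and C content was 51.7% for NM_001035243, 40.0% for NM_001035242 and 41.7% for AK087052, against a median of 40.0% over the 1194 listed probes. Because the brightness of a spot depends on its probe's sequence, levels are compared across mice for 1 probe at a time and not between probes. Whether the RNA of the strains differs in sequence under a probe, which could change its brightness, was not tested. Strain differences below are therefore differences in probe signal.

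On GRCm38, both Trpm3 transcripts run along the plus strand of chromosome 19 from 22139117 to 22989882, a span of 851 kb. They are 6676 nt (NM_001035243) and 6706 nt (NM_001035242) long once spliced. AK087052 lies on the minus strand from 22892166 to 22894371, with an RNA of 2141 nt, 753 kb past the Trpm3 start and 95.5 kb before its end. Trpm3 was the only RefSeq gene of GRCm38.p6 that overlapped it, and Mir204 lies 141 kb nearer the Trpm3 start. The probe spans differ more than the transcripts do. The span listed for the NM_001035243 probe runs from 22889449 to 22897669 and encloses AK087052, starting 2.72 kb before it and ending 3.30 kb after it. The span listed for the NM_001035242 probe runs over 558 kb, from 22139306 to 22697421, and ends before Mir204. The spans are longer than the probes, and how the list sets them is not given in the sources used here.

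The probes also differ in the splice forms they match. The list around AK087052 names 7 Trpm3 transcripts, of which the NM_001035243 probe matches 4 and the NM_001035242 probe matches 5. They share 3, namely NM_001035239, NM_001035242 and NM_001035243. NM_001035244, which starts 554 kb downstream of the upstream start, is matched by the NM_001035243 probe, while NM_001035240 and NM_001035241 are matched by the NM_001035242 probe. NM_177341, which starts 309 kb downstream, is matched by neither. RefSeq lists 30 coding transcripts of Trpm3 in all, so the probes give the summed signal of several forms and not that of 1 isoform.

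**Figure D1:**
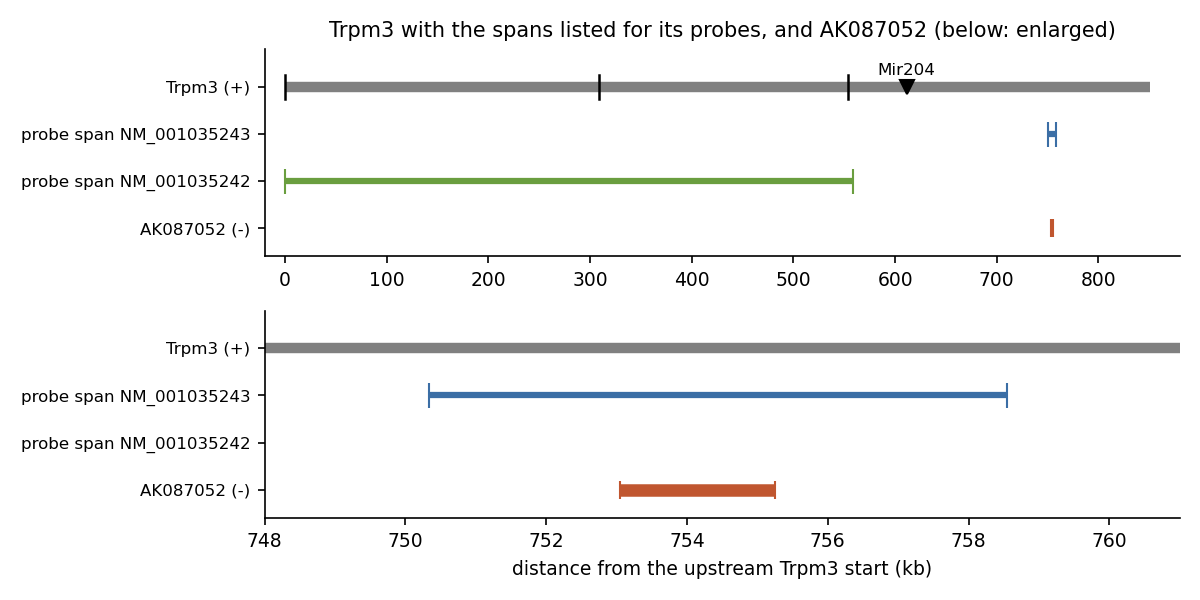
Trpm3, the spans listed for its 2 probes and AK087052, by distance from the upstream Trpm3 start in kb (top, whole gene; bottom, the region around AK087052). Black ticks mark listed Trpm3 starts and the triangle marks Mir204; AK087052 falls inside the 8.22 kb span listed for the NM_001035243 probe and outside that of NM_001035242.

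The 5 listed forms that begin at the upstream start have the same listed start, 22139117, and both Trpm3 probes match forms among them. Whether these forms share a promoter was not measured. The RefSeq gene begins farther upstream, at 22137797, so the window shown lies inside its span. The 250 bases before the RefSeq start at 22139046, close to the listed start, are given with the motif CCAAT in capitals (GRCm38.p6, chr19:22138796-22139045, plus strand, from RefSeq).
Trpm3 upstream promoter: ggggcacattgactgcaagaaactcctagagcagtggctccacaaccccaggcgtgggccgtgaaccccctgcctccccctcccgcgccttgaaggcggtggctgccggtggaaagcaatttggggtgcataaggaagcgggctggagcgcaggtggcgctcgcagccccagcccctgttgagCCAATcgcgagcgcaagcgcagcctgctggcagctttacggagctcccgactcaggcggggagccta
They held 17 CpG dinucleotides, at percentile 76.5 of 32851 mouse promoters of the same length, whose median was 6. Their G and C content was 66.4%, against a median of 52.4%. CCAAT, searched on both strands, is present in 33.8% of these promoters. TATAAA and GGGCGG, present in 12.4% and 32.7% of them, had no match in this window. The 250 bases before the start at 22448208, that of NM_177341, held 9 CpG dinucleotides and none of the 3 motifs. A match describes the letters only, and binding was not measured.

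Across the 8 arrays, which lay on 1 slide, between 29301 and 36162 probes were well above background and no spot was saturated. The C57BL/6 arrays were brighter before normalization, with a 75th percentile of the intensity of 67.4 to 109 against 46.9 to 74.7 on the DBA/1 arrays. Slide row was read here from a part of the array barcode in the scanner header, which does not name it as a row. By this reading, the 4 C57BL/6 arrays lay in row 1 and the 4 DBA/1 arrays in row 2, so slide row and strain cannot be told apart. Levels below are log2 signals after quantile normalization, which gives every array the same distribution, and the lowest value they can take is 2.32. A probe was well above background where the scanner software flagged its spot so. In brainstem tissue, fewer cells of a type and less RNA per cell cannot be told apart.

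The Trpm3 probe of NM_001035243 had the same order of strains in every comparison of single mice. Its normalized log2 signal was 6.88, 6.68, 7.24 and 6.71 in C57BL/6 replicates 1 to 4, and 5.58, 5.83, 5.83 and 6.14 in DBA/1 replicates 1 to 4. The dimmest C57BL/6 mouse lay 0.53 above the brightest DBA/1 mouse. The means were 6.88 ± 0.26 (SD, n = 4) in C57BL/6 and 5.84 ± 0.23 (SD, n = 4) in DBA/1 mice, a log2 fold change of -1.03 (standard error 0.19), or 2.04-fold lower in DBA/1. The spot was well above background on all 8 arrays. On each array it was brighter than 79.1% to 83.0% of all probes in C57BL/6 and 70.0% to 74.9% in DBA/1 mice. Trpm3 RNA was thus detected in every brainstem of both strains.

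The probe of NM_001035242 had a mean difference of nearly the same size but a wider spread. Its log2 signal was 5.45, 5.30, 5.85 and 5.38 in C57BL/6 and 4.22, 4.73, 3.66 and 5.19 in DBA/1 replicates 1 to 4. The strains did not overlap, but DBA/1 replicate 4 lay only 0.11 below C57BL/6 replicate 2. The means were 5.50 ± 0.25 (SD, n = 4) and 4.45 ± 0.66 (SD, n = 4), a log2 fold change of -1.05 (standard error 0.29), or 2.07-fold lower in DBA/1. The spot was well above background on 4 C57BL/6 and 3 DBA/1 arrays. The exception was DBA/1 replicate 3, which had the lowest 75th percentile of intensity (46.9) and the fewest probes well above background (29301) of the 8 arrays; their part in the low value was not tested.

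AK087052 ran the other way. Its log2 signal was 3.38, 2.86, 4.57 and 3.34 in C57BL/6 and 5.01, 5.02, 5.61 and 5.56 in DBA/1 replicates 1 to 4. The brightest C57BL/6 mouse, replicate 3, lay 0.44 below the dimmest DBA/1 mouse. The means were 3.54 ± 0.73 (SD, n = 4) in C57BL/6 and 5.30 ± 0.33 (SD, n = 4) in DBA/1 mice, a log2 fold change of 1.76 (standard error 0.32), or 3.40-fold higher in DBA/1. The spot was well above background in all 4 DBA/1 mice and in C57BL/6 replicates 3 and 4, while in C57BL/6 replicates 1 and 2 it was not. The size of the fold therefore leans on C57BL/6 signals close to the background.

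**Figure D2:**
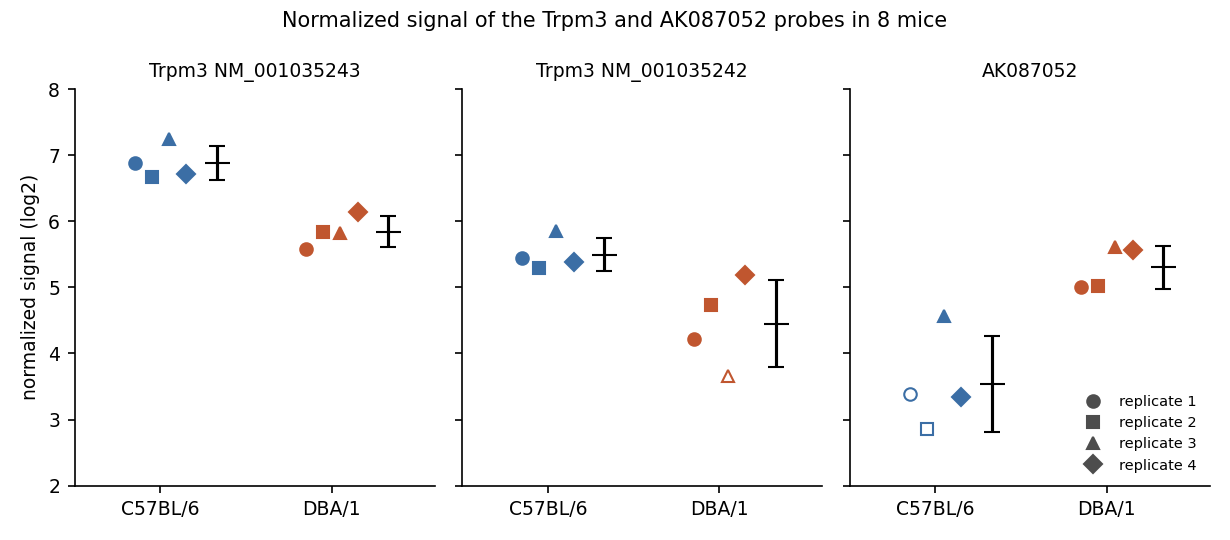
Normalized log2 signal of each probe in the 8 mice, by strain, with the mean and SD (n = 4) beside the points; marker shape gives the replicate number, and open markers were not well above background. Both Trpm3 probes lie lower and AK087052 lies higher in DBA/1, with gaps between the strains of 0.53, 0.11 and 0.44.

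The spots that carry these values were dim for 2 of the probes. Before normalization the NM_001035243 spot had an intensity of 97.7 to 175 in C57BL/6 and 37.3 to 74.3 in DBA/1 mice, with a spot error of 10.1% to 11.9% on every array. NM_001035242 gave 45.9, 37.4, 68.0 and 63.8 in C57BL/6 and 19.1, 23.2, 8.0 and 37.8 in DBA/1 replicates 1 to 4. Its strains overlapped on this scale, since DBA/1 replicate 4 exceeded C57BL/6 replicate 2. AK087052 gave 10.8, 6.48, 28.0 and 14.8 in C57BL/6 and 30.7, 28.4, 32.2 and 49.3 in DBA/1 mice. Here C57BL/6 replicate 3 and DBA/1 replicate 2, at 28.0 and 28.4, differed by less than their spot errors of 3.35 and 3.39. The local background around all these spots had a median of 12 to 15, and the spot error reached 25.3% for NM_001035242 in DBA/1 replicate 3 and 28.6% for AK087052 in C57BL/6 replicate 2.

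**Figure D3:**
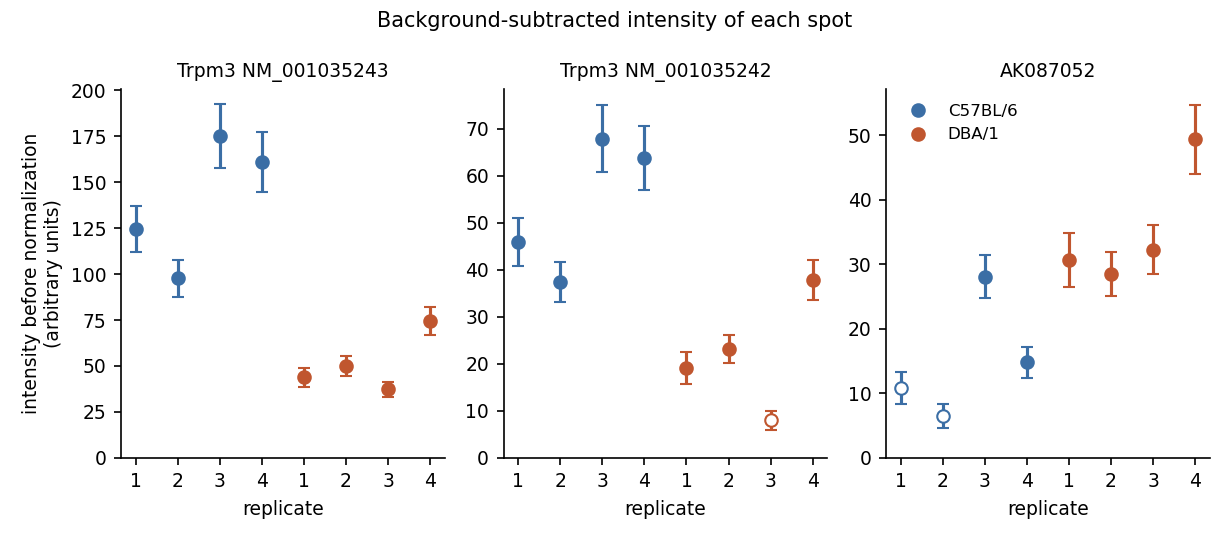
Background-subtracted intensity of each spot before normalization between arrays (arbitrary units, a separate axis per probe), for replicates 1 to 4 of each strain; bars are the spot error and open markers were not well above background. The strains are apart for NM_001035243, overlap for NM_001035242, and nearly meet for AK087052 at 28.0 and 28.4.

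The spread of AK087052 in C57BL/6 and that of NM_001035242 in DBA/1 stood high among probes of like mean signal over all 8 arrays. In those strains the probes were dimmer than that mean, at 3.54 for AK087052 and 4.45 for NM_001035242. Both lay below the range compared, so the percentiles are not against probes as dim in the same strain. Over the 6440 tested probes within 0.5 of AK087052's mean log2 signal over the 8 arrays, the median SD among C57BL/6 mice was 0.28. Its own SD of 0.73 stood at percentile 97.8. Over the 5980 probes around NM_001035242, the median SD among DBA/1 mice was 0.31, and its SD of 0.66 stood at percentile 93.8. In the other strain these probes stood at percentiles 42.6 (AK087052) and 48.3 (NM_001035242). NM_001035243, with 4689 probes of like brightness, stood at percentile 63.3 in C57BL/6 and 42.1 in DBA/1 mice, and so varied between mice about as much as other probes did.

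The 3 probes were set beside all 33179 probes tested. The log2 fold change over all tested probes had a median of -0.01. The cutoffs of the lists, a fold change of 2 or more and an unadjusted p under 0.05, were applied here with limma. By them, 1 of the 3 probes (AK087052) was called higher in DBA/1, where 1.05% of all tested probes were. Both Trpm3 probes were called lower, where 3.31% were. With the adjusted p in its place, AK087052 was still called higher (0.886% of all) and NM_001035243 lower (2.94% of all), while NM_001035242 was not called. The study's own table of antisense pairs at an adjusted p under 0.05 does not name AK087052 with Trpm3. The strains did not overlap for any of the 3, which held for 4.50% of all probes in the direction of AK087052 and 7.63% in that of Trpm3. Since the lists were chosen by this contrast, nothing is read from these counts. Both Trpm3 probes lie just inside the 2-fold limit, and no Trpm3 probe outside it is named in the lists used here.

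Which mouse was left out decided on which side of that limit the Trpm3 probes fell. The log2 fold change of NM_001035243 was -0.91 without C57BL/6 replicate 3 and -0.95 without DBA/1 replicate 1, under 2-fold in both, and met the criterion in the other 6 of 8 runs. That of NM_001035242 was under 2-fold without C57BL/6 replicate 3 (-0.93), DBA/1 replicate 1 (-0.99) or DBA/1 replicate 3 (-0.78), and it passed the adjusted criterion in 1 run, without DBA/1 replicate 4 (-1.29). AK087052 met both criteria in all 8 runs, with log2 fold changes from 1.53 without C57BL/6 replicate 2 to 2.10 without C57BL/6 replicate 3. No run turned a direction, for which the lack of overlap between the strains left little room.

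**Figure D4:**
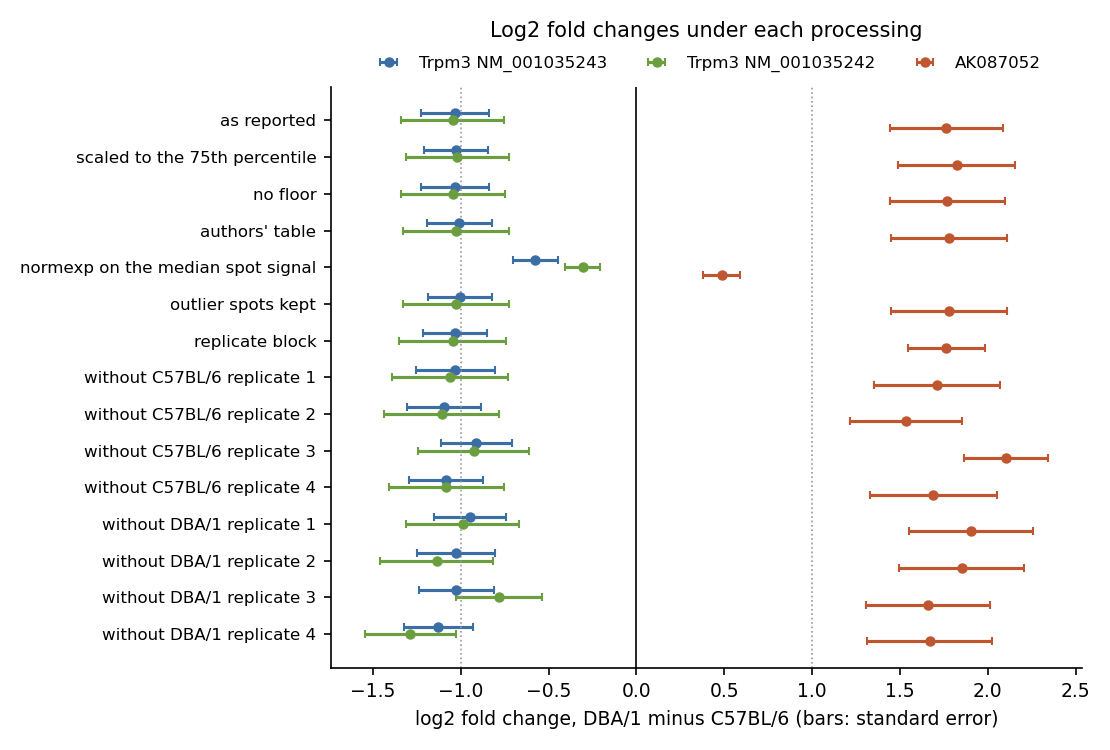
Log2 fold change (DBA/1 minus C57BL/6) of the 3 probes under each processing and with each mouse left out; bars are standard errors and dotted lines mark 2-fold. Every value keeps its sign, as the lack of overlap between the strains makes likely. The Trpm3 probes scatter around the 2-fold line, and the normexp background correction gives the smallest changes, at -0.57, -0.31 and 0.48.

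Sense and antisense signal were then set side by side in each mouse. The log2 signal of NM_001035243 minus that of AK087052, of which only changes between mice can be read, was 3.50, 3.81, 2.67 and 3.37 in C57BL/6 and 0.57, 0.81, 0.21 and 0.58 in DBA/1 replicates 1 to 4. The strain means were 3.34 ± 0.48 (SD, n = 4) and 0.54 ± 0.25 (SD, n = 4), and they differed by -2.80, the sum of both opposite shifts. With NM_001035242 as the sense probe, the difference was 2.07, 2.44, 1.29 and 2.05 in C57BL/6 and -0.79, -0.29, -1.95 and -0.37 in DBA/1 mice. Its means of 1.96 ± 0.48 (SD, n = 4) and -0.85 ± 0.77 (SD, n = 4) differed by -2.81. Both balances of sense against antisense were separated between the strains without overlap, as the choice of the members fixes.

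The Trpm3 probes kept a near-constant distance in C57BL/6 mice and a varying one in DBA/1 mice. In C57BL/6 mice, NM_001035243 minus NM_001035242 was 1.43, 1.38, 1.39 and 1.33, with a mean of 1.38 ± 0.041 (SD, n = 4). In DBA/1 mice it was 1.35, 1.1, 2.17 and 0.95, with a mean of 1.39 ± 0.54 (SD, n = 4). The strain means differed by 0.015, less than the spread within either strain, for probes that were both listed with a change near 2-fold. The value of 2.17 belongs to DBA/1 replicate 3, in which NM_001035242 was not well above background.

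Within a strain, the antisense signal did not move against the sense signal in each mouse. In C57BL/6 mice, all 3 probes were highest in replicate 3, which deviated from the strain mean by 0.36 for each Trpm3 probe and by 1.03 for AK087052. All 3 were lowest in replicate 2, at -0.20, -0.20 and -0.67. Sense and antisense thus deviated the same way in these mice, while between the strains they differed in opposite ways. In DBA/1 mice, replicate 4 was above the mean for all 3 probes, by 0.30 (NM_001035243), 0.74 (NM_001035242) and 0.26 (AK087052), and replicate 1 was below it, by -0.27, -0.23 and -0.29. Replicate 3 had the highest AK087052 value (0.31 above the mean) and the lowest NM_001035242 value (-0.79). Replicate 2 was below the mean for AK087052 (-0.28), above it for NM_001035242 (0.28) and at it for NM_001035243 (-0.01).

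Over all 8 mice, with the strain means removed, the deviations of AK087052 correlated with those of NM_001035243 (Pearson's r = 0.839, Spearman's rho = 0.786) more than with those of NM_001035242 (r = 0.277, rho = 0.357), in values that share their arrays. Without C57BL/6 replicates 2 and 3, the mice farthest from the median of AK087052, r was 0.678 for NM_001035243 and -0.065 for NM_001035242, over 6 mice. These values are a description, and no test was made, since the mice form a cluster of only 4 per strain. The sign for NM_001035242 rests on those 2 mice. In C57BL/6 replicates 1 and 2 the AK087052 spot was not well above background, so these deviations lean on dim signals. Before normalization, the 75th percentile of intensity was 83.6 in C57BL/6 replicate 3 and 109 in replicate 4. An effect of the array on the deviations was not tested.

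**Figure D5:**
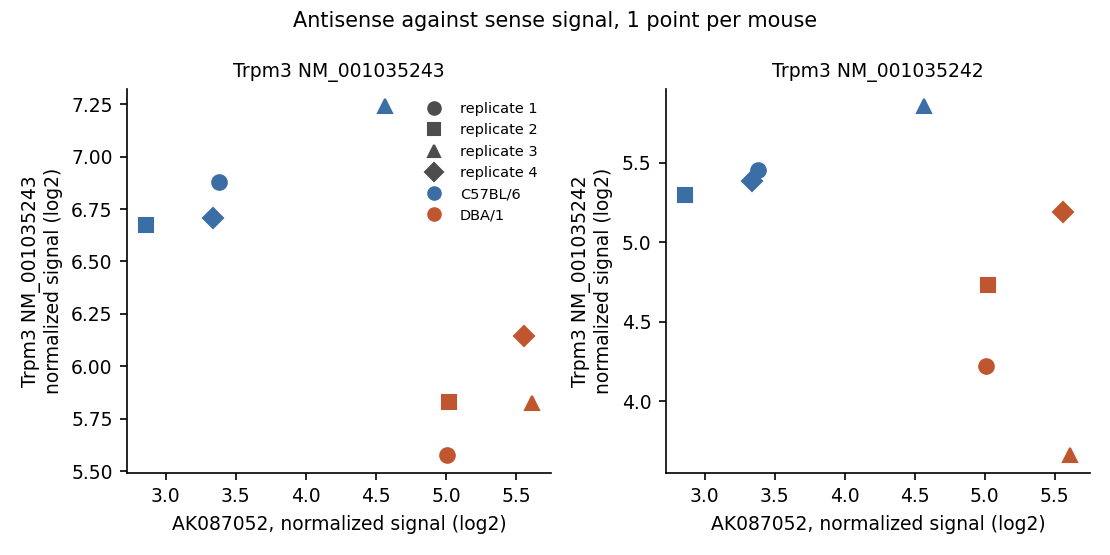
Normalized log2 signal of AK087052 (horizontal) against each Trpm3 probe (vertical), 1 point per mouse; colour gives the strain and marker shape the replicate. The strains form separate clusters, and within C57BL/6 replicate 3 lies highest and replicate 2 lowest on both axes.

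Gene names are held here only for the 1194 probes that the study listed for their strain difference, so other genes of the pathway can be described only where they were listed. Of 27 genes of the TRP channel superfamily, 1 other than Trpm3 was named, Pkd2, which encodes the calcium-permeable channel polycystin-2 and lies on chromosome 5. Its log2 signal was 3.79, 2.76, 2.73 and 2.58 in C57BL/6 mice, where it was well above background in 1 of 4, and 5.17, 4.76, 4.20 and 4.19 in DBA/1 mice, where it was so in 4 of 4. The strains did not overlap, and the direction was opposite to that of Trpm3. No fold is given, because most C57BL/6 signals were not well above background. None of 9 genes of neurosteroid synthesis and none of 13 markers of choroid plexus epithelium was named, so the supply of the channel's ligand and the share of this epithelium in the tissue were not measured. Of 6 genes of brainstem neurons, Tph2, the enzyme of serotonin synthesis in raphe neurons, was named. Its log2 signal was 9.38 to 10.73 in C57BL/6 and 11.11 to 11.60 in DBA/1 mice, well above background on all 8 arrays, so this marker of the labelled tissue was present in every mouse. Tph2 was itself listed for a strain difference, and it was higher in DBA/1 without overlap (log2 fold change 1.63, standard error 0.29). None of 3 oligodendrocyte markers was named.

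Another intronic antisense pair of the lists had both members lower in DBA/1 mice. AK155933, on chromosome 7 (66309195 to 66312519, plus strand), lies inside Lrrk1 (66258747 to 66388341, minus strand), which encodes a leucine-rich repeat kinase. In C57BL/6 mice the mean signal was 4.52 ± 0.61 (log2, SD, n = 4) for AK155933 and 4.14 ± 0.12 (log2, SD, n = 4) for Lrrk1. In DBA/1 mice, neither was well above background on any array. Over the 9 listed pairs of an antisense lncRNA and its host gene that were analysed, sense and antisense had the same direction in 7, and the other 2 were AK087052 with either Trpm3 probe. Further pairs that the study names were not analysed here. Among them, the paper reports the natural antisense RNA AK007047 as down and its sense gene Zfp963 as up. It reports AK149710 and its sense gene Pitpna as both down. Opposite directions are therefore not particular to Trpm3 among the pairs that the study names. Both members of every such pair were listed for a strain difference, and the pairs share members, so no test was made. Of 61 listed intronic antisense lncRNA probes, 25 were higher and 36 lower in DBA/1 mice.

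Along chromosome 19, listed genes within 5 Mb of Trpm3 differed in both directions. The nearest, Fam189a2, 983 kb away, was lower in DBA/1 like Trpm3, at 10.02 ± 0.21 against 11.14 ± 0.37 in C57BL/6 (log2, SD, n = 4 each). Nmrk1, a kinase of nicotinamide riboside, lies 3487 kb away and was also lower, by both its mRNA probe (log2 fold change -1.25, standard error 0.17) and its lncRNA probe (-1.32, standard error 0.18). The lncRNA listed at Rfk, the riboflavin kinase gene, 4739 kb away, was higher by 1.17 on the log2 scale (standard error 0.16), the direction of AK087052. The lncRNA listed at Gcnt1, 4782 kb away, was well above background in 4 of 4 C57BL/6 mice, at log2 signals of 3.49 to 4.05, and in none of the DBA/1 mice.

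The listed probes most like each member were found by 2 measures over all 8 arrays, among 1166 listed probes with a value on each. By the root mean square difference of the log2 values after each probe's own mean was removed, the nearest to NM_001035243 were AK032546 (0.165), the histone gene H2afj (0.172) and mouselincRNA0509 (0.180), and the nearest to NM_001035242 was again mouselincRNA0509 (0.191). The Trpm3 probes differed from each other by 0.332 on this scale and from AK087052 by 1.44 (NM_001035243) and 1.51 (NM_001035242). The nearest to AK087052 were a noncoding transcript of Rock2 (0.327), one of H6pd (0.394) and AK050092. After the strain means were removed, the deviations of single mice correlated most with those of Tcea3 (Pearson's r = 0.864) for NM_001035243, mouselincRNA0509 (0.937) for NM_001035242 and AK137801 (0.893) for AK087052. These values describe 8 arrays that share a slide, and they carry no test.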

How the data were processed

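Brainstem RNA of 4 C57BL/6 and 4 DBA/1 mice was labeled with Cy3 by random priming and hybridized to an Agilent array for lncRNAs and mRNAs, with 1 array for each mouse. The scanner output deposited by the authors gives the spot intensity that Agilent Feature Extraction 11.0.1.1 gave after background subtraction, not normalized between arrays, and the authors' deposited table holds log2 values of 60804 probes. Outlier spots were left out, 5 was taken as the lowest intensity, and quantile normalization was applied on the log2 scale. With outlier spots kept, the same steps matched the authors' log2 table to within 0.0539, for values more than 0.5 above the floor. Probes well above background on at least 4 arrays were fitted with limma 3.58.1 (lmFit and eBayes) in R 4.3.3, without a block, with the Benjamini-Hochberg adjustment over 33179 probes. The fit was tested on simulated data. Python 3.11.15 (pandas 2.3.3, numpy 2.4.6) served for the remaining steps.

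Probes were matched by name to the study's lists, whose sequences, genes and positions were used and whose fold changes and p-values were not. The lists' positions fitted GRCm38, with 411 of 424 matched mRNAs inside their RefSeq gene of GRCm38.p6, although the scanner header names mm9. The members and gene lists were chosen with earlier results of these data known. Named were the members, genes of the lists, listed neighbors on chromosome 19, the other intronic antisense pair and the 3 probes most like each member. The alternatives tried were no floor, scaling by the 75th percentile, the deposited table, normexp, outlier spots kept, other filters on dim probes, an unmoderated test, a replicate block and each mouse left out. Protein sequences and the qRT-PCR mice were not used here.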

Additional observations from a re-analysis of the deposited data

How the results depend on the processing

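All 42 alternative values of the 3 log2 fold changes kept their direction. Nothing is read from this, since the probes were listed for the difference and the strains did not overlap. Leaving out a mouse could then hardly turn a sign, and the replicate block leaves the fold unchanged. The normexp background correction on the median spot signal, with an offset of 50, gave -0.57 for NM_001035243, -0.31 for NM_001035242 and 0.48 for AK087052. An offset added to intensities of its own order shrinks the folds of dim spots. The setting also changed the spot signal and the background model, and the share of each was not tested. Under it, 380 probes met the 2-fold criterion with an unadjusted p and 328 with an adjusted p, against 1448 and 1268 as reported. Requiring spots well above background on all 8 arrays left 687 and 632 calls, and of the members it left NM_001035243, since the others were below that level in some mice. With each mouse left out, the log2 fold change ranged from -1.13 to -0.91 for NM_001035243, from -1.29 to -0.78 for NM_001035242 and from 1.53 to 2.10 for AK087052, and the calls ranged from 1428 to 1684 unadjusted and from 1112 to 1415 adjusted. With the replicate number as a block, the log2 fold changes were -1.03, -1.05 and 1.76, with 1454 and 1324 calls, and the standard error of AK087052 was 0.22 against 0.32 without the block. The replicate numbers follow the order of the samples within each strain, and the mouse numbers in the sample titles do not pair the strains in this way. The deviations of mice given the same replicate number correlated by 0.376, 0.021, 0.135 and 0.350. Pairing was taken to need a correlation over 0.1 in every pair, which 1 pair missed, so the fit without the block was kept, and a structure shared by the other pairs was not tested.

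Signal over background limits the size of the folds, since AK087052 was not well above background in 2 of 4 C57BL/6 mice and NM_001035242 in 1 of 4 DBA/1 mice. The 4 mice per strain on 1 slide, with each strain in its own row, limit every difference given.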
